A study of Rattus norvegicus with 6 samples.

Results

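Insulin and the insulin-like growth factors act through a shared set of receptors and adaptors, and 10 genes of this system were followed in rat kidney: the ligand gene Igf1, the receptor genes Igf1r and Insr, the adaptor genes Irs1 and Irs2, and the genes of the binding proteins Igfbp1 to Igfbp5. They were chosen by gene symbol, with earlier results of these data known. Every array probe whose RefSeq accession belongs to 1 of them was taken. This gave 14 probes among the 30367 on the array, of which 12, covering all 10 genes, were bright enough to be tested. The brightest probe of each gene entered the test over 18338 features, and the other bright ones were tested only as single probes. Kidney RNA came from 3 diabetic rats and from 3 rats given Bailing Capsule, a fermented Cordyceps preparation, all 21 weeks old. The labels give no strain, sex, dose, duration or way of inducing diabetes, do not say whether the treated rats were diabetic, and no non-diabetic group was analysed here. The question of the series is how the preparation affects gene expression in the kidney.

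Insulin and IGF-1 bind related receptor tyrosine kinases, which phosphorylate the IRS adaptors and switch on PI3-kinase and Akt. Akt keeps FoxO transcription factors out of the nucleus, so genes driven by FoxO, among them Igfbp1, Irs2 and Pck1, are known to be held down by insulin. The binding proteins carry IGFs and limit or localise their access to the receptor. In the kidney IGF-1 is made locally and also arrives from the liver, and it is known for effects on filtration and on renal growth in early diabetes.

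Promoter sequence is shown for 4 members, 3 of which hold 1 of the letter motifs searched and 1 of which, Igfbp4, had the largest difference between the groups. Each run is the 250 bases before the gene's start on its own strand, from RefSeq on build GRCr8, 5′ to 3′, with the motif matches in capitals. The motifs were GTAAACA, a FoxO element, and CAAAACA, the core of the insulin response sequence described in Igfbp1, each searched on both strands. Matches of both motifs may share end bases, and a match is only a match of letters.
Igfbp1 (chr14:86261027-86261276, plus strand): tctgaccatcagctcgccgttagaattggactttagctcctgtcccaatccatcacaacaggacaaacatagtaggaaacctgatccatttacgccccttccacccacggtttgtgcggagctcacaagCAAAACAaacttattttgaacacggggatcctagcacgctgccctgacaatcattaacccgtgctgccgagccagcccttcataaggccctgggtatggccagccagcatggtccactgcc
Igf1 (chr7:24172282-24172531, plus strand): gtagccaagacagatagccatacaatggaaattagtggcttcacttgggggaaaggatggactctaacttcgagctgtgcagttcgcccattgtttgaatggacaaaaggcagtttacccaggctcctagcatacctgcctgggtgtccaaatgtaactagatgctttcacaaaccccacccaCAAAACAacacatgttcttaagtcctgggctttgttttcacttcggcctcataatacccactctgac
Insr (chr12:6128804-6129053, minus strand): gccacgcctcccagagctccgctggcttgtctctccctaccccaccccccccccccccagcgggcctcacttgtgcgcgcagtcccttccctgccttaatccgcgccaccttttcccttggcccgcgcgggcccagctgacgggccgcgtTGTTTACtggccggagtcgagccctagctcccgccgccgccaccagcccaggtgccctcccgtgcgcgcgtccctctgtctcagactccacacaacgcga
Igfbp4 (chr10:84491221-84491470, plus strand): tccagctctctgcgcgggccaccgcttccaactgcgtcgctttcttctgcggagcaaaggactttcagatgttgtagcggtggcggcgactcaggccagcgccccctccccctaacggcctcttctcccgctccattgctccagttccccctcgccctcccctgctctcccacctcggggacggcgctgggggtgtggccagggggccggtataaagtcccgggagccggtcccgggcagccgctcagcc

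The insulin response sequence in Igfbp1 began 121 bases before the start, and the one in Igf1 began 67 bases before it. The FoxO element of Insr lay on the opposite strand, from 100 to 94 bases before the start. Of 33469 rat promoters of the same length 5.46% hold CAAAACA or its reverse complement, 3.21% hold GTAAACA or its reverse complement, and 8.35% hold either. RefSeq's table had 9 of the 10 members, all but Irs2, and 3 of the 9 held a motif. On the same assembly Igfbp1 and Igfbp3 are neighbours on chromosome 14, and Igfbp2 and Igfbp5 are neighbours on chromosome 9.

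All values below are log2 signals relative to the 75th percentile of the same array, and all differences are Bailing Capsule minus diabetic. No member passed limma at a Benjamini-Hochberg adjusted p under 0.05, while 0.294% of all features did (54 of 18338). Of all features 0.125% passed as higher and 0.169% as lower in Bailing Capsule kidneys, 23 and 31 features; with quantile normalization the split was 17 and 14. At an unadjusted p under 0.05 there were 4 of 10 members (Igf1, Igfbp4, Irs2 and Igfbp1), against 7.57% of all features. Groups did not overlap for 3 members that were higher with Bailing Capsule (Igf1, Igfbp4 and Irs1) and for 2 that were lower (Irs2 and Igfbp1), against 4.74% and 7.18% of all features. Because the members were chosen with earlier results of these data known, these counts are no test of the gene set. The median difference was 0.05 over the 10 members and -0.09 over all features. It has no settled sign: it was -0.11 over members and -0.09 over all features well above background on all 6 arrays, which leaves out Igfbp5. It was -0.02 against -0.17 without diabetic replicate 1, -0.0055 against -0.16 without Bailing Capsule replicate 1, and 0.27 against 0.09 with slide as a block. Of the members 5 had positive and 5 had negative differences.

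**Figure D1:**
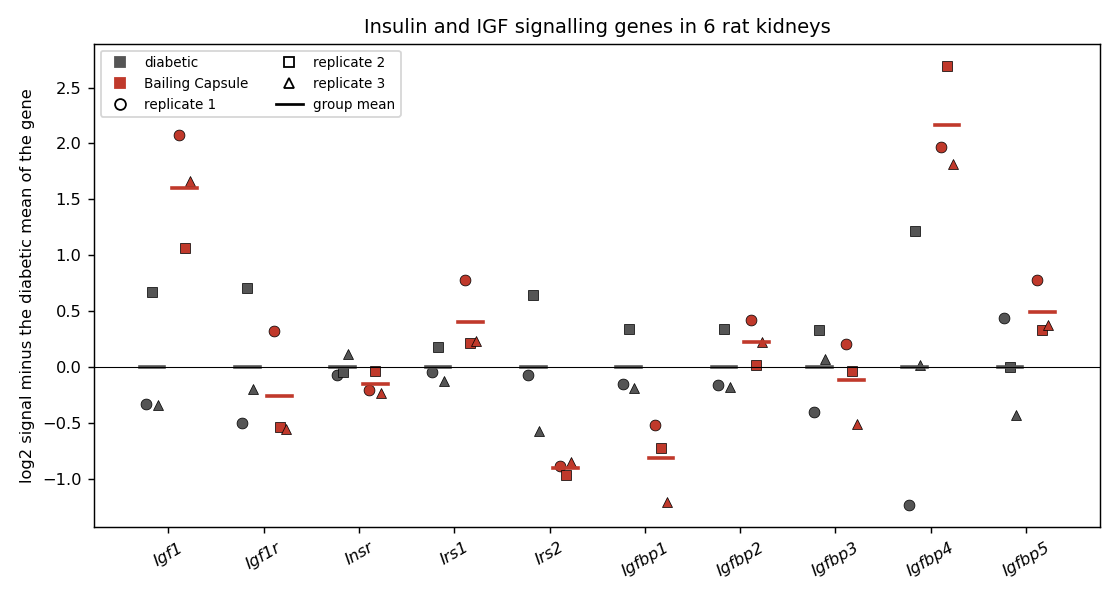
Log2 signal of the 10 genes on each of the 6 arrays, minus the diabetic mean of the same gene (grey, diabetic; red, Bailing Capsule; marker shapes, replicates; bars, group means of 3). Igf1 and Igfbp4 lie higher and Irs2 and Igfbp1 lower on every Bailing Capsule array than on any diabetic array, and the diabetic values of Igfbp4 span more than those of the other genes.

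Igf1 encodes the growth factor itself. Its brighter probe, annotated to NM_178866, gave 1.74, 2.74 and 1.73 on the diabetic arrays 1, 2 and 3, and 4.15, 3.14 and 3.73 on the Bailing Capsule arrays 1, 2 and 3. The lowest Bailing Capsule value thus lay above the highest diabetic value. The means were 2.07 ± 0.58 and 3.67 ± 0.51 (SD, n = 3 each), a difference of 1.60 (SE 0.36, 95% interval 0.80 to 2.41) or 3.03-fold. Only 0.36% of features had a difference as large or larger, and by unadjusted p Igf1 stood 156th of 18338. It did not pass over all features (limma, adjusted p = 0.148). Over 19 alternatives the difference stayed between 1.36 and 1.93 and the adjusted p between 0.0606, in the deposited table, and 0.545.

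The array carries a further Igf1 probe, annotated to the transcript NM_001082479, and it too was brighter on all Bailing Capsule arrays. Its highest diabetic value was -1.04 and its lowest Bailing Capsule value -0.43, so the groups again did not overlap, with means of -1.47 ± 0.49 and -0.14 ± 0.27 (SD, n = 3 each). The difference was 1.33 (SE 0.30, limma, adjusted p = 0.151 among single probes). Both probes report on the same RNA of the same animals and are no replicates of each other. The probes differed from each other by 3.11 to 4.04 log2 units on the 6 arrays, so their ratio moved by less than the difference between the groups.

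Among 10393 other named features, those whose profile over the 6 arrays was closest to that of Igf1 were Hmx2, Tff3, Atp6v1g3, Defb42 and Larp1bl. The measure was the root mean square difference between profiles centred on their own means, and it ran from 0.24 for Hmx2 to 0.34 for Larp1bl. They were picked for that closeness, so differences between the groups with the sign of Igf1 follow from the choice. These differences ran from 1.09 for Atp6v1g3, a proton pump subunit gene of intercalated cells, to 1.40 for Defb42, and none passed. Of the 4 collecting duct markers Slc26a4, the pendrin gene of intercalated cells, was higher by 1.68 (limma, adjusted p = 0.0480), Aqp3 and Aqp2 of principal cells had -0.84 and -0.48, and Scnn1g had 0.15. The summed linear signal of the 4, in multiples of the array's 75th percentile, was 75.2 to 125.6 on diabetic and 61.2 to 79.1 on Bailing Capsule arrays. Aqp2 and Aqp3, with diabetic means of 6.12 and 4.29, outweigh Slc26a4, at -0.85, in this sum. In whole kidney a change in the number of cells of a type and a change in RNA per cell cannot be told apart, and the part of these cells in the values of Igf1 was not tested.

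Igf1r encodes the IGF-1 receptor and Insr the insulin receptor. Neither passed limma (adjusted p = 0.969 and 0.970), and the groups overlapped for both. Insr (NM_017071) was dim and steady, with -4.06, -4.02 and -3.87 in diabetic kidneys against -4.19, -4.02 and -4.21, a difference of -0.16 (SE 0.23, 95% interval -0.68 to 0.37). It was 0.018 with normexp background correction and -0.0996 without diabetic replicate 3. A further Insr probe was well above background on 1 Bailing Capsule array only and was not tested. Igf1r (NM_052807) had 2.52, 3.73 and 2.83 against 3.34, 2.49 and 2.47. Diabetic 2 and Bailing Capsule 1 were the brightest arrays, with a difference of -0.26 (SE 0.37, 95% interval -1.08 to 0.57).

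The Igf1r value depends on which spots are used. Its probe is printed 10 times on each array, and the scanner software flagged 9 of the 10 spots as outliers on diabetic array 2, 7 on diabetic array 3 and 6 on Bailing Capsule array 1. The value of 3.73 therefore rests on 1 spot, which at 2949 was the brightest of that array's 10, the lowest being 1440. With every spot kept, the 3 diabetic values were 2.51, 2.80 and 2.57, the 3 Bailing Capsule values were 3.03, 2.42 and 2.45, and the difference was 0.0067. With slide as a block it was 0.25, and Igf1r has no settled direction in these data. The spots of Irs1, also printed 10 times, were flagged on at most 2 of 10 per array.

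**Figure D2:**
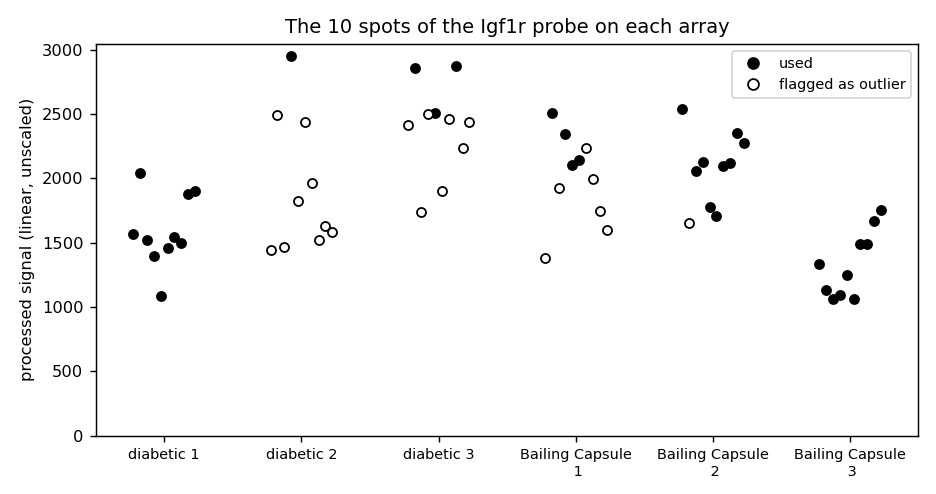
Processed signal, on a linear and unscaled axis, of the 10 spots of the Igf1r probe on each array (filled, used; open, flagged as outliers). On diabetic array 2 the single used spot, at 2949, lies above the 9 flagged ones, while no spot was flagged on diabetic array 1 or Bailing Capsule array 3.

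The adaptors Irs1 and Irs2 link these receptors to PI3-kinase, and their values lay in opposite directions. Irs2 (NM_001168633), which is known to be held down by insulin, had 2.41, 3.13 and 1.90 in diabetic kidneys and 1.59, 1.51 and 1.63 in Bailing Capsule kidneys. The Bailing Capsule arrays lay close together and below every diabetic array. The means were 2.48 ± 0.62 and 1.58 ± 0.06 (SD, n = 3 each), a difference of -0.90 (SE 0.32, 95% interval -1.62 to -0.19) or 1.87-fold, which did not pass (limma, adjusted p = 0.451). Of all features 2.76% had a value as low or lower. Without diabetic replicate 2, the brightest array for Irs2, the difference was -0.58.

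Irs1 (NM_012969) was dim, with -4.84, -4.61 and -4.91 against -4.01, -4.58 and -4.56. The groups did not overlap, but the highest diabetic value lay just below the lowest Bailing Capsule value. The difference was 0.41 (SE 0.26, limma, adjusted p = 0.854), 0.22 without Bailing Capsule replicate 1 and 0.08 with normexp background correction. A further Irs1 probe was well above background on 1 diabetic and 2 Bailing Capsule arrays and was not tested.

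**Figure D3:**
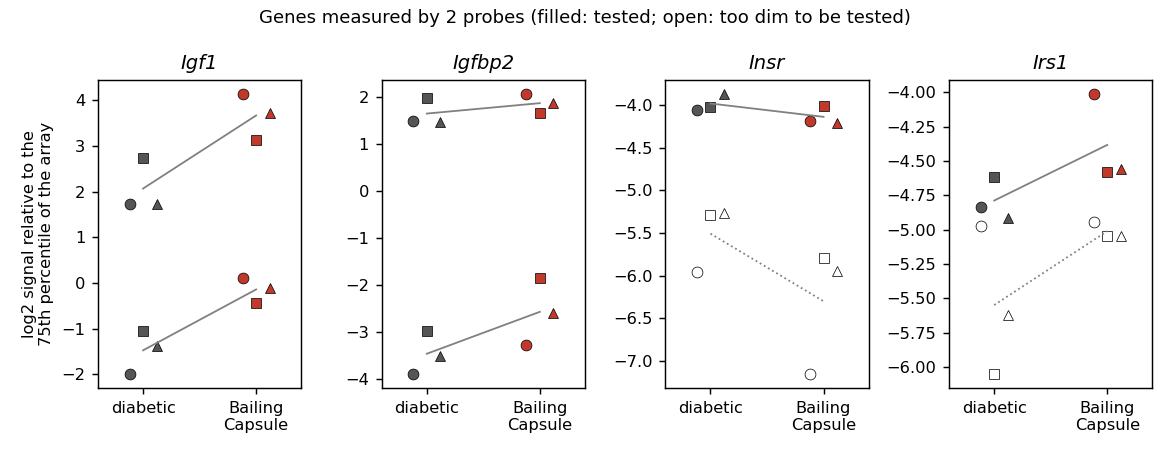
Log2 signal relative to the 75th percentile of the array for the 4 genes with 2 probes (filled, tested; open, too dim to be tested; lines join group means). Both Igf1 probes lie higher on all 3 Bailing Capsule arrays, while the dimmer Igfbp2 probe shows a larger difference than the brighter one and the groups overlap for both.

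Of the 5 binding protein genes, Igfbp4 had the largest difference and Igfbp1 a negative one, both without overlap. Igfbp4 (NM_001004274) encodes a binding protein that restrains IGF action until a protease cleaves it. Its values were 0.02, 2.48 and 1.28 in diabetic kidneys and 3.23, 3.95 and 3.08 in Bailing Capsule kidneys. The diabetic arrays were far apart, with diabetic 1 the lowest, and all lay below the Bailing Capsule arrays. The means were 1.26 ± 1.23 and 3.42 ± 0.47 (SD, n = 3 each), a difference of 2.16 (SE 0.53, 95% interval 0.98 to 3.34) or 4.47-fold. Only 0.109% of features had a difference as large or larger, and it did not pass (limma, adjusted p = 0.197).

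Scan time split the arrays into 2 sets, taken here as slides, which the labels do not name. Diabetic 1 was on slide 1 with the 3 Bailing Capsule arrays, and diabetic 2 and 3 were on slide 2. With slide as a block the difference of Igfbp4 was 3.40 (SE 0.51) and passed (limma, adjusted p = 0.0289). That value sets the Bailing Capsule arrays against diabetic 1 alone, because slide 2 holds no Bailing Capsule array. Fitted within slide 1 only, the same 3.40 did not pass (limma, adjusted p = 0.102). Without diabetic replicate 1 the difference was 1.54. With the same block Igf1 had 1.93, Irs2 -0.83 and Igfbp1 -0.67, none of which passed (limma, adjusted p = 0.248, 0.9997 and 0.9997).

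Igfbp1 (NM_013144) encodes a binding protein made chiefly in liver, and its gene is the classic insulin-suppressed member of the family. Diabetic arrays gave 2.48, 2.96 and 2.44, and Bailing Capsule arrays 2.11, 1.90 and 1.42, with all Bailing Capsule values below all diabetic ones. The means were 2.63 ± 0.29 and 1.81 ± 0.36 (SD, n = 3 each), a difference of -0.82 (SE 0.28, 95% interval -1.45 to -0.19) or 1.76-fold, which did not pass (limma, adjusted p = 0.426). Of all features 3.72% had a value as low or lower. Its promoter, shown above, holds CAAAACA, as does that of Igf1, which had a difference of 1.60. Of rat promoters of this length 5.46% hold it on either strand, and its part in the values was not tested.

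The hepatocyte markers bright enough to be tested had lower values with Bailing Capsule, as Igfbp1 did. Of 11 such markers 6 were tested, all with negative differences and 5 without overlap, with a median of -1.16 and 0 passing; of all features 7.18% were lower without overlap. Among them were Alb at -1.37 and Fgb at -1.74. Their summed linear signal, in multiples of the array's 75th percentile, was 2.34 to 3.34 on diabetic arrays and 1.06 to 1.36 on Bailing Capsule arrays. Fgb and Fga, with diabetic means of 0.18 and -0.11, weighed most in this sum on diabetic arrays, and Alb weighed little. These 6 markers (Alb, Ttr, Serpina1, Fgb, Fga and Apob) were well above background on all 6 arrays. Of the 5 not tested, Apoa1, Ahsg, Cps1 and Tat were not well above background on any array, and Apoa2 was on 1 diabetic array. In diabetic kidneys the mean of Igfbp1 was 2.63, against 0.18 for Fgb, the brightest of the 6 there, and -2.69 for Alb. Levels of different probes can be compared only roughly. The part of such transcripts in the values of Igfbp1 was not tested.

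The neighbour of Igfbp1, Igfbp3 (NM_012588), encodes the main carrier of IGFs in serum and is known from endothelial cells in kidney. It had 2.76, 3.49 and 3.23 against 3.37, 3.13 and 2.65, with the groups interleaved and a difference of -0.11 (SE 0.30, 95% interval -0.78 to 0.55, limma, adjusted p = 0.981). Its sign changed under 7 of 19 alternatives, so it has no settled direction. The 5 tested endothelial markers had a median of -0.38, with 0 passing.

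Igfbp2 and Igfbp5, the other neighbours, encode binding proteins that can also act at the cell surface or in the matrix. The brighter Igfbp2 probe (NM_013122) had 1.50, 1.99 and 1.47 against 2.08, 1.67 and 1.88, overlapping, with a difference of 0.22 (SE 0.26, 95% interval -0.36 to 0.81, limma, adjusted p = 0.966). Leaving out single arrays gave 0.12 to 0.39. The dimmer Igfbp2 probe, annotated to the same transcript, had -3.91, -2.99 and -3.51 against -3.27, -1.85 and -2.60. It overlapped as well and gave 0.89 (SE 0.38, limma, adjusted p = 0.607 among single probes), so the probes agree in sign but not in size.

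Igfbp5 (NM_012817) was dim, at -4.49, -4.93 and -5.36 against -4.14, -4.60 and -4.55. It was well above background on 1 diabetic and on all 3 Bailing Capsule arrays, and so entered the test only through the group where it was brighter. The difference was 0.50 (SE 0.29, limma, adjusted p = 0.809), and it was 0.06 with slide as a block and 0.10 with normexp background correction.

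**Figure D4:**
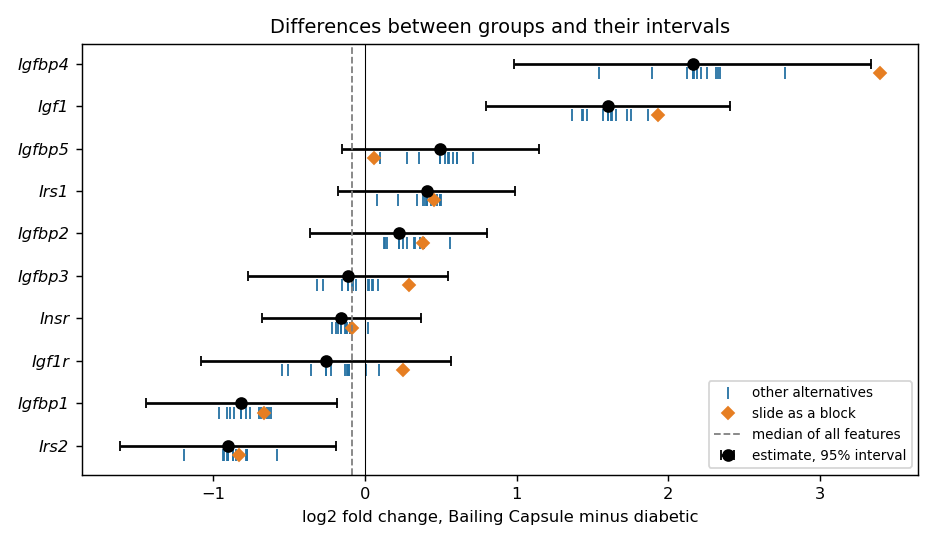
Difference between the groups for each gene on the log2 scale, with its 95% interval (black), the value with slide as a block (orange) and those under the other alternatives (blue ticks). The intervals of Igf1, Igfbp4, Irs2 and Igfbp1 lie on 1 side of 0, and for Igfbp4 the slide block gives 3.40 in place of 2.16.

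Other genes of the pathway were described from a list of 65 arranged by role, of which 44 were tested. None passed limma, 6 had an unadjusted p under 0.05, and the groups did not overlap for 2 that were higher and 5 that were lower. Pdk4, bright enough for the test only through the diabetic group, where it was higher, is among both the 6 and the 5. Of all features 7.57% had such a p, 4.74% were higher and 7.18% lower without overlap. This list too was chosen with earlier results of these data known, so its counts are no test either. The median difference was -0.04. Insulin's own genes and those of the further IGF ligand and receptors overlapped between the groups. Ins1 had -0.41 and Ins2 -0.67, both low in signal with diabetic means of -2.54 and -3.11. Igf2 had 0.06, the clearance receptor gene Igf2r -0.58 and the growth hormone receptor gene Ghr 0.09. Igfbp7, which lacked a value on diabetic array 2, had -0.15, and Stc1, which encodes stanniocalcin, -0.41.

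Among genes of inhibitors of receptor signalling, 2 of 7 tested were lower without overlap, against 7.18% of all features. Grb14, whose product binds and blocks the insulin receptor kinase, had 3.47, 2.82 and 2.74 in diabetic kidneys and 2.25, 2.08 and 2.48 in Bailing Capsule kidneys, a difference of -0.74 (SE 0.28, limma, adjusted p = 0.512), or -1.20 with slide as a block. Socs3, a cytokine-induced inhibitor that also targets the IRS adaptors, was dimmer, at -3.56, -3.19 and -3.29 against -4.21, -3.82 and -3.81. Its difference was -0.60 (SE 0.25, limma, adjusted p = 0.608), and -0.12 with normexp background correction.

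Downstream of the adaptors, 7 of 8 tested PI3-kinase and Akt genes had positive differences, against 6967 of all 18338 features. The 8 had a median difference of 0.35, with 0 passing. Relative to each gene's diabetic mean, the median of the 8 was -0.10, 0.13 and -0.03 on diabetic arrays. On Bailing Capsule arrays 1, 2 and 3 it was 0.14, 0.63 and 0.16, so it was highest on array 2. Pik3cb is among the 7 but was well above background on 2 diabetic and 3 Bailing Capsule arrays, so it entered only through the group where it was brighter. Akt1 and Pik3cb, both dim with diabetic means of -3.89 and -4.73, had 0.47 and 0.36, and the groups overlapped for both. The 4 tested adaptor genes lay near 0, with Shc1 at -0.07, Sos1 at -0.16 and Sh2b2 at -0.27. In the mTOR branch Ddit4, whose stress-induced product restrains mTOR complex 1, had -0.87, -0.998 and -0.61 against -0.33, 0.85 and -0.45. The difference was 0.85 (SE 0.36, limma, adjusted p = 0.601), and 0.43 without Bailing Capsule replicate 2. Rheb and Rptor had -0.16 and -0.24. The FoxO genes Foxo3 and Foxo4 had 0.03 and -0.05, and Gsk3b had 0.31.

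Genes that FoxO or insulin control fell on both sides of 0, with 5 of 7 tested negative and a median of -0.23. Of all 18338 features 11371 had negative differences. Pdk4, which restrains pyruvate oxidation and is also driven by fatty acids, was bright enough for the test only through the diabetic group, where it was higher. Its values were -2.07, -3.80 and -2.17 in diabetic kidneys and -6.76, -4.66 and -4.85 in Bailing Capsule kidneys, where it was well above background on 2 of 3 arrays. The difference of -2.75 (SE 0.60, limma, adjusted p = 0.133) did not pass and rests partly on Bailing Capsule 1, where the probe was not well above background. With normexp background correction it was -0.64, and without Bailing Capsule replicate 1 it was -2.08. Pck1, of gluconeogenesis, had 3.93, 4.24 and 3.74 against 2.14, 3.70 and 2.80, a difference of -1.09 (SE 0.38, limma, adjusted p = 0.420), or -0.72 without Bailing Capsule replicate 1. Cited2, which encodes a transcriptional coregulator, had -0.75 (SE 0.26, limma, adjusted p = 0.423), or -0.46 with normexp background correction. Pdk4, Pck1 and Cited2 were lower without overlap between the groups, as were 7.18% of all features. G6pc1, the remaining gluconeogenic gene of the list, overlapped and had -0.23, named after its value was seen.

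**Figure D5:**
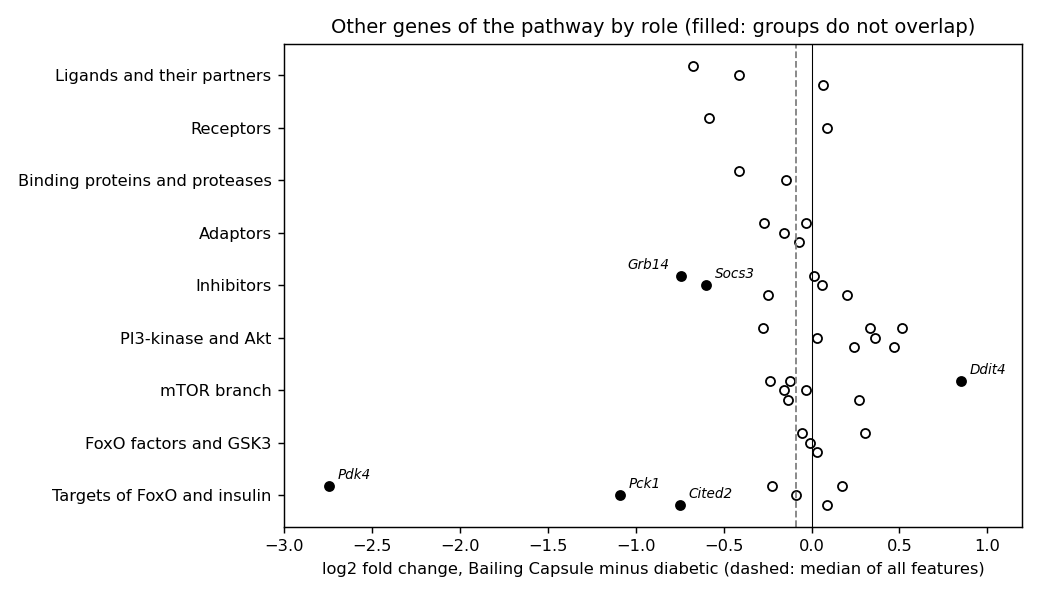
Difference between the groups, on the log2 scale, for 42 of the 44 tested pathway genes outside the 10 members, by role (filled and named, groups do not overlap; dashed line, median of all features). Pdk4 and Pck1 lie furthest to the left, at -2.75 and -1.09, and Ddit4 furthest to the right, at 0.85.

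Pairs of arrays correlated at 0.966 to 0.992 across features, and 65.3% to 73.7% of probes were well above background. The first principal component, the largest shared direction of variation, held 41.9% of the variance and mixed the groups. On it diabetic 2 and 3 and Bailing Capsule 1 had 51.8, 21.6 and 25.7. Diabetic 1 and Bailing Capsule 2 and 3 had -16.7, -53.6 and -28.8. The tissue label was borne out by its markers: all 6 proximal tubule, 4 podocyte and 4 collecting duct markers were well above background on all 6 arrays. No spot was saturated. The labels number the samples as replicates without naming animals, and the p-values reflect only their spread, which may be technical. The number of arrays limits the precision.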

How the data were processed

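Kidney RNA of 3 diabetic and 3 Bailing Capsule rats was hybridised to one-colour Agilent arrays. Per the file headers, the G2505C scanner and Feature Extraction 11.0.1.1 gave a background-subtracted, detrended intensity for each spot, unscaled between arrays. The deposited table of log2 values has columns with equal medians (5.05) and equal 90th and 99th percentiles (11.2 and 14.5), as quantile normalization gives; what else was done to it is not stated.

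Outlier spots, 597 to 1091 on an array, were dropped, the remaining spots of a probe were averaged on the log2 scale, and each array's 75th percentile was subtracted. Probes well above background on all 3 arrays of at least 1 group, with values on at least 2 arrays of each group, were kept, and the brightest stood for a gene. RefSeq accessions without versions named 18005 of 30367 probes through a gene table of assembly GRCr8; the array annotation is of build rn4. The test was lmFit and eBayes of limma 3.58.1 under R 4.3.3, with Benjamini-Hochberg adjusted p under 0.05 as the threshold. The script was tested on data simulated with the spread of these arrays, independently for each feature. Of 200 features changed by 1, 1.5 or 2 log2 units, 0%, 31.5% and 66.5% passed. Not passing therefore does not show that a change of such a size is absent. Slides were inferred from scan time alone, and array positions recur between the 2 but not within either. Alternatives covered scaling, normexp (offset 50, on median signals), the deposited table, spot flags, filters, probe choice, variance model, blocks and left-out arrays; the fit within slide 1 was added after the data were seen.

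The members and lists were chosen with earlier results of these data known. Named were the members, in each pathway role every called gene and the 3 smallest p, and the 5 profiles closest to Igf1, the member with the smallest p; 2 genes that this rule takes in are not reported here.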

Additional observations from a re-analysis of the deposited data

How the results depend on the processing

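The number of members that passed was 0 under 18 of the 19 alternatives and 1, Igfbp4, with slide as a block; no other pathway gene passed under any of them. Igf1, Igfbp4, Irs1, Irs2, Igfbp1 and Igfbp2 kept their sign under all 19 alternatives and Igfbp5 under the 18 that gave it a value; where groups do not overlap, leaving out an array cannot change the sign. Igfbp3 had 0.025 with quantile normalization, 0.017 with normexp, 0.045 in the deposited table, and 0.29 both with slide as a block and on slide 1 alone; leaving out single arrays gave -0.31 to 0.087. Igf1r had 0.0067 with flagged spots kept, and 0.25 both with slide as a block and on slide 1 alone; leaving out single arrays gave -0.55 to 0.094. Insr had 0.018 with normexp. Apart from the spots used for Igf1r, the cause was not tested. All features called numbered 54, against 31 with quantile normalization, 16 with normexp, 6 with no filter, 35 with the filter on all 6 arrays, 9 on slide 1 alone and 6 with the replicate block. Leaving out single arrays gave 17 (diabetic 2 or 3) to 186 (diabetic 1), with 139, 24 and 25 for Bailing Capsule 1, 2 and 3. The share called higher was 42.6%, against 54.8% with quantile normalization and 53.5% in the deposited table and 71.8% with slide as a block. Same-numbered samples correlated at -0.18, -0.14 and 0.02 after group means were removed, and none correlated best with its own number, so the replicate block is no pairing by design. Dim probes (Insr, Irs1, Igfbp5) limit what can be seen.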
